A study of Mus musculus with 22 samples.

Results

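The 73 genes described here encode pre-mRNA splicing factors, and they were taken from the 12596 genes of a table of mouse hindbrain RNA by their symbols. A gene was a member when its symbol began with Srsf and a digit, with Hnrnp, with Snrnp, with Snrp and a letter, with Sf3a or Sf3b, or with Prpf and a digit, or when it was Matr3. In the RefSeq annotation 74 protein-coding symbols meet that rule, and 73 of them were in the table. The rule reads the symbol alone and uses no measured value.

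The 22 libraries came from 11 mice that carried both the Th-cre transgene and the Slc6a2-eGFP/Rpl10a transgene, with C57Bl/6 given as the background. The second transgene places a green fluorescent tag on ribosomal protein L10a under the control of Slc6a2, the noradrenaline transporter gene, so that an antibody to the tag captures ribosomes and their RNA from noradrenergic cells. Human tyrosinase (hTyr), the enzyme that makes melanin pigment from tyrosine, was infused in 5 animals, and the fluorescent protein EYFP was infused in 6 animals. Each animal gave an immunoprecipitated library (IP), labelled noradrenergic, and a library of total hindbrain RNA taken before immunoprecipitation (input). This made 4 groups, hTyr IP and hTyr input with 5 libraries each and EYFP IP and EYFP input with 6 each. All 4 groups carried both transgenes, there was no uninfused group, and age and sex are not given in the sources used here. Cre activity follows Th, which is also used by dopaminergic cells, and the tag follows Slc6a2. The promoter that drives hTyr or EYFP is not given in the sources used here. The series' text names the locus coeruleus (LC), the main noradrenergic nucleus of the hindbrain, as the target.

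Splicing removes introns from nuclear pre-mRNA on the spliceosome, which is built from the U1, U2, U4, U5 and U6 small nuclear ribonucleoproteins (snRNPs). U1 marks the 5′ splice site, U2 with the SF3A and SF3B complexes marks the branch site, and the U4/U6 and U5 tri-snRNP then joins and is remodelled into the catalytic form. SR proteins mostly promote the use of the exons they bind, many hnRNPs repress exons or package nascent RNA, and Sm proteins form the ring at the core of the U1, U2, U4 and U5 particles. The proteins act in the nucleus, while their mRNAs are translated in the cytoplasm, so an IP of tagged ribosomes measures the mRNAs that make these factors and says nothing of splicing itself.

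The members lie on 18 chromosomes, and 63 of them matched a RefSeq promoter window of GRCm38.p6, which runs from 250 bases before to 50 after an annotated transcript start. The windows below are examples from 4 members that were higher in IP in both treatments (Snrnp200, Prpf6, Prpf8 and Prpf4b) and 4 that were lower in both (Srsf2, Srsf9, Hnrnpul1 and Snrnp70), shown so that sequences from both directions can be compared. Each is the 100 bases up to an annotated start, 5′ to 3′ on the strand of the gene, with capitals marking a match to 1 of 3 motifs. The positions are chr2:127208286-127208385 on the plus strand for Snrnp200, chr2:181601219-181601318 plus for Prpf6, chr11:75486677-75486776 plus for Prpf8, chr13:34875429-34875528 plus for Prpf4b, chr11:116853095-116853194 minus for Srsf2, chr5:115327077-115327176 plus for Srsf9, chr7:25754760-25754859 minus for Hnrnpul1 and chr7:45395743-45395842 minus for Snrnp70.
Snrnp200: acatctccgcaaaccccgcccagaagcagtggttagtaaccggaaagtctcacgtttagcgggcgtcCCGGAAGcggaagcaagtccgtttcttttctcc
Prpf6: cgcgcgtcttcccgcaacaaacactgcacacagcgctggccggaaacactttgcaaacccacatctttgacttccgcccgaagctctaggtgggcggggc
Prpf8: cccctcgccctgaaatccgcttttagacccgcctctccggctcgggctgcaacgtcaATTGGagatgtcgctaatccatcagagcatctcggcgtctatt
Prpf4b: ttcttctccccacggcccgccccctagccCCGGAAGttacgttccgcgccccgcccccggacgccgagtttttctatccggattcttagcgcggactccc
Srsf2: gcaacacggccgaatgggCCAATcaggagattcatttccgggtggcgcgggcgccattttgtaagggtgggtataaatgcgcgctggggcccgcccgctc
Srsf9: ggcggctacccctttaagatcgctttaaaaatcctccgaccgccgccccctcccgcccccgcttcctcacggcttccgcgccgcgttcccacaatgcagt
Hnrnpul1: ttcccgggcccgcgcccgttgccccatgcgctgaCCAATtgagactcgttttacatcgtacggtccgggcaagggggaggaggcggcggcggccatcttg
Snrnp70: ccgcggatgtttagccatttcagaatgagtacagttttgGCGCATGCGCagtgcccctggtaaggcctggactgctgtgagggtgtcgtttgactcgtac
The motifs searched on both strands were an ETS-type site (CCGGAAG, reverse CTTCCGG), the CCAAT box (CCAAT, reverse ATTGG) and the palindromic NRF1 site, whose letters are the capitals in the window of Snrnp70. The ETS letters and their reverse overlap in CCGG, and sites of different motifs can share at most 1 base. The capitals are an ETS match in Snrnp200 and Prpf4b, a CCAAT match in Prpf8, Srsf2 and Hnrnpul1, and an NRF1 match in Snrnp70, while Prpf6 and Srsf9 hold none of the 3 in these 100 bases. Over the whole 300 bases, ETS matches were in 32.5% of the 83 member windows, in 16.3% of the 12446 windows of genes in the table and in 8.86% of all 32851 windows. CCAAT matches were in 44.6%, 37.1% and 37.4% of the same sets, and NRF1 matches in 2.41%, 1.91% and 0.971%. Among members that were higher in IP in both treatments, 29.4% of 34 windows held the ETS letters and 58.8% the CCAAT letters, and among those lower in both, 41.7% of 12 windows held the ETS letters and 33.3% the CCAAT letters. The NRF1 letters were in 0 of the 34 windows and in 2 of the 12 (16.7%). These shares describe letters in a window and were not tested.

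The libraries held between 12654489 and 25100142 reads over the genes of the table. The member with the fewest reads in a library was Snrpg with 41, and the median over members of their lowest library was 661 reads, so counting error is small for nearly all of them. All 10 noradrenergic marker genes, Th, Dbh and Slc6a2 among them, were higher in IP in both treatments. Their summed level was 9.25 to 10.3 log2 CPM in EYFP IP against 7.41 to 7.66 in EYFP input, and 9.54 to 11 in hTyr IP against 7.44 to 7.76 in hTyr input. Markers of other cells were still present in IP: the 10 oligodendrocyte markers summed to 12.6 to 12.9 log2 CPM in EYFP IP and to 12.6 to 13 in EYFP input, and 4 of them were lower in IP and 3 higher. Of 12 markers of other neurons, 7 were higher and 1 lower in the IP of EYFP animals, where 28.5% of all genes were higher and 28.1% lower. Median summed levels of astrocyte, microglia and endothelial markers were 10.48, 8.05 and 5.56 log2 CPM in EYFP IP and 10.45, 7.97 and 5.38 in EYFP input. In hTyr animals they were 10.58, 8.23 and 6.00 in IP and 10.53, 8.01 and 5.09 in input. The part of these cells in the results below was not tested. In RNA from whole tissue or a pull-down, fewer cells of a type and less RNA per cell cannot be told apart.

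Splicing factors were called only in the comparison of immunoprecipitation against input, where a large part of all genes was called too. In EYFP animals 30 of the 73 members were higher in IP (41.1%) and 12 were lower (16.4%), where 28.5% of all genes were higher and 28.1% lower. In hTyr animals 30 were higher again and 9 lower (12.3%), where 27.4% of all genes were higher and 27% lower. The test was limma on log2 CPM (reads scaled to a common library total) with Benjamini-Hochberg adjustment over all genes at 0.05, and p-values measure the spread between these animals. This fit did not use the pairing of the IP and input libraries of an animal. A paired fit, with the animal as a block, kept all 30 higher calls in each treatment and the 12 and 9 lower calls, and added a few. The 30 higher members were the same genes in both treatments, though Prpf31 and Prpf39 passed only narrowly in hTyr animals. Of the lower members 8 were shared, which is 66.7% of the EYFP list and 88.9% of the hTyr list. No member was called in opposite directions.

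The typical member differed little between IP and input, with a median log2 change of 0.11 in EYFP animals and 0.14 in hTyr animals beside -0.03 and -0.04 for all genes. IP and input libraries did not overlap for 24 higher and 4 lower members in EYFP animals, where 16.7% and 13.4% of all genes showed this. In hTyr animals 20 higher and 7 lower members were without overlap, where 20.7% and 16.8% of all genes were. Within animals, 27 members (37.0%) were higher in IP than in the input of the same animal in all 11 mice, against 22.8% of all genes. Another 7 (9.59%) were lower in all 11, against 21.4%.

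**Figure D1:**
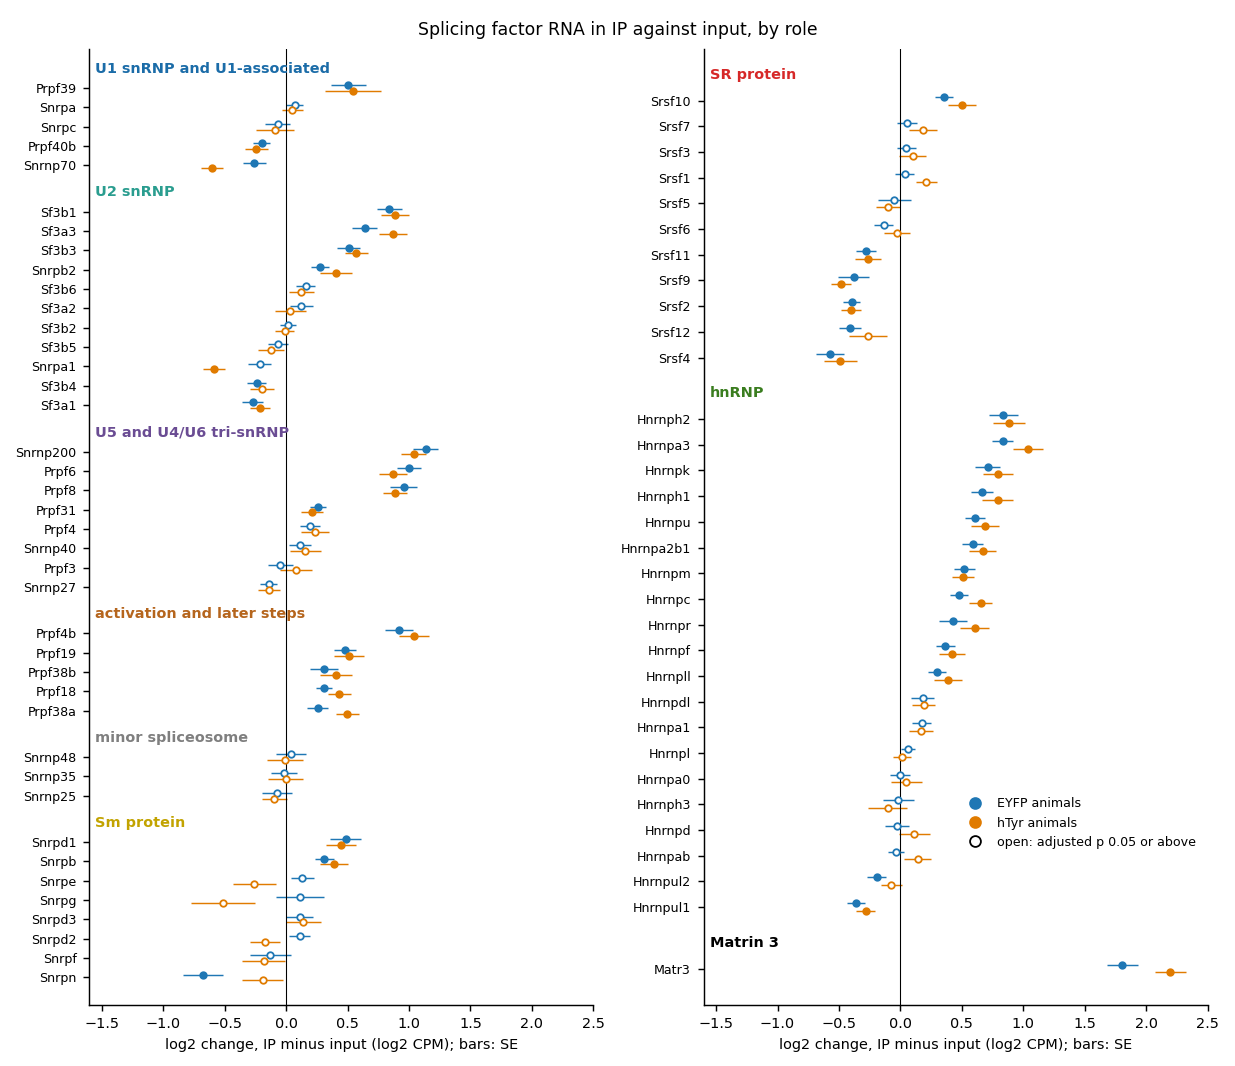
Log2 change of the members named here between IP and input, grouped by role, with EYFP animals in blue and hTyr animals in orange. Bars are standard errors and open points have an adjusted p of 0.05 or above. All 5 factors of activation and later steps lie above 0, SR proteins lie mostly at or below 0, and Matr3 is farthest to the right at 1.81 and 2.19.

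Matr3 stood farthest from input. It encodes matrin 3, an RNA- and DNA-binding protein of the nuclear matrix that represses many exons and is mutated in some forms of amyotrophic lateral sclerosis. Its level in EYFP animals was 7.81, 8.53 and 8.76 log2 CPM in IP (lowest, median and highest of 6) and 6.31, 6.68 and 6.80 in input. In hTyr animals the 5 IP libraries were at 8.26, 8.46, 8.51, 8.69 and 8.96, and the 5 input libraries at 6.04, 6.34, 6.38, 6.54 and 6.62. Every IP library was therefore above every input library by more than 1 log2 unit. The log2 change was 1.81 (SE 0.13, limma adjusted p = 2.48e-07) in EYFP animals and 2.19 (SE 0.12, adjusted p = 4.88e-09) in hTyr animals, which is 3.50-fold and 4.58-fold. Ranked by change, Matr3 was number 19 of the 12596 genes in EYFP animals and number 21 in hTyr animals. In each of the 11 mice it was higher in IP, by 1.5 to 2.43. With a per-library trend on length and GC content removed and the animal as a block, the change was smaller but still called, 1.30 in EYFP and 1.49 in hTyr animals.

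Core proteins of the tri-snRNP were higher in IP. Snrnp200 encodes the Brr2 helicase that unwinds U4 from U6, Prpf8 encodes the protein that holds the catalytic RNA, and Prpf6 bridges U5 to U4/U6. Of the 8 proteins of this particle 4 were higher in IP and 0 lower, in both treatments. Of all genes 28.5% were higher and 28.1% lower in EYFP animals, and 27.4% and 27% in hTyr animals. Snrnp200 was at 6.16, 6.59 and 6.87 log2 CPM (lowest, median, highest) in EYFP IP and 5.35, 5.46 and 5.65 in EYFP input. In hTyr animals it was at 6.05, 6.24, 6.39, 6.57 and 6.57 in IP and 5.20, 5.26, 5.37, 5.37 and 5.43 in input. All IP libraries lay above all input libraries, with a log2 change of 1.14 (SE 0.10, limma adjusted p = 9.13e-07) in EYFP and 1.04 (SE 0.10, adjusted p = 4.76e-07) in hTyr animals.

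Prpf8 was at 6.72, 7.21 and 7.47 log2 CPM in EYFP IP and 6.01, 6.24 and 6.31 in EYFP input. Its hTyr libraries were at 6.68, 6.87, 6.97, 7.14 and 7.20 in IP and 6.00, 6.01, 6.11, 6.12 and 6.17 in input. The groups did not overlap in either treatment, and the changes were 0.96 (SE 0.11, adjusted p = 4.28e-06) and 0.89 (SE 0.10, adjusted p = 1.19e-06). Prpf6 changed by 1.00 (SE 0.10, adjusted p = 1.25e-06) and 0.87 (SE 0.12, adjusted p = 9.58e-06). Prpf31, a U4/U6 protein mutated in retinitis pigmentosa, was the fourth, at 0.26 (adjusted p = 0.00223) and 0.21 (adjusted p = 0.0491). The other 4 members of the particle, Prpf3, Prpf4, Snrnp40 and Snrnp27, had no call, with changes between -0.14 and 0.23. With the animal as a replicate block Prpf4 passed in EYFP animals (limma adjusted p = 0.0495). With the length and GC trend also removed, Snrnp27 was called lower in both treatments, and the particle held 4 higher and 1 lower member in each.

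All 5 factors of activation and later steps were higher in IP in both treatments, and 3 in EYFP and 4 in hTyr animals were with the length and GC trend removed. Of all genes 28.5% were higher in EYFP and 27.4% in hTyr animals, and 29.8% and 28.1% with that trend removed. Prpf4b, a kinase that acts when the spliceosome is activated, had the largest change of the 5 factors, 0.92 (SE 0.11, limma adjusted p = 6.89e-06) and 1.04 (SE 0.12, adjusted p = 2.60e-06). It was at 5.49, 5.78 and 6.01 log2 CPM in EYFP IP against 4.52, 4.94 and 5.02 in EYFP input, without overlap. The hTyr libraries were at 5.52, 5.58, 5.78, 5.89 and 6.01 in IP and 4.33, 4.68, 4.83, 4.84 and 4.90 in input, again apart. Prpf19, the ubiquitin ligase that names the PRP19 complex, changed by 0.48 and 0.51, and Prpf18, which acts at the second step, by 0.31 and 0.43. Prpf38a and Prpf38b, which join before activation, changed by 0.26 and 0.31 in EYFP and by 0.50 and 0.41 in hTyr animals.

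**Figure D2:**
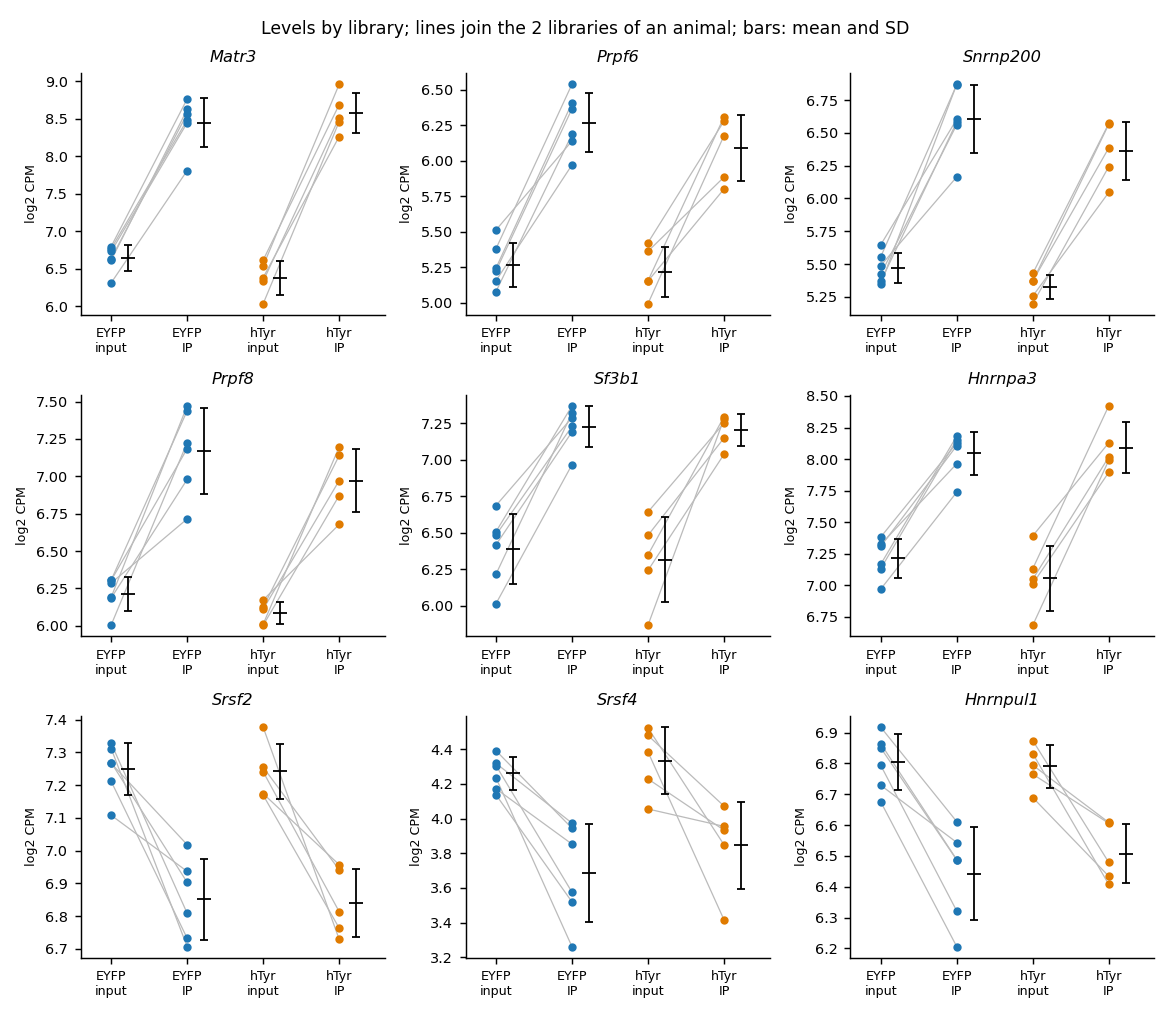
Level of 9 members in every library, as log2 CPM, with EYFP animals in blue and hTyr animals in orange. Grey lines join the IP and input libraries of an animal, and black bars are the mean and SD of a group. Matr3, Prpf6, Snrnp200, Prpf8, Sf3b1 and Hnrnpa3 are higher in IP in all 11 animals, and Srsf2, Srsf4 and Hnrnpul1 lower in all 11.

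Of the 6 U1 proteins 2 were higher and 2 lower in each treatment, which is near the shares of all genes given above. Prpf39, which is tied to U1, changed by 0.51 (adjusted p = 0.00665) and 0.55 (adjusted p = 0.0494). Prpf40b, another U1-associated protein, was lower in IP by -0.20 (adjusted p = 0.0221) and -0.24 (adjusted p = 0.0321).

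Snrnp70, the U1-70K protein that binds the U1 RNA directly, was lower in IP. It was at 6.87, 7.18 and 7.50 log2 CPM in EYFP IP and 7.30, 7.43 and 7.60 in EYFP input, and these ranges overlapped. The hTyr libraries were at 6.59, 6.64, 6.71, 6.82 and 6.90 in IP and 7.06, 7.34, 7.38, 7.38 and 7.51 in input, without overlap. The changes were -0.26 (SE 0.09, limma adjusted p = 0.0242) and -0.60 (SE 0.09, adjusted p = 4.10e-05), and IP was the lower library in all 11 animals. The EYFP call depended on single animals: the adjusted p was 0.0851 without the animal of library IP_504, 0.0742 without that of IP_506 and 0.114 without that of IP_512. Snrpa and Snrpc, the other U1-specific proteins, had no call in either treatment.

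Among the 11 U2 members 4 were higher and 2 lower in each treatment. Of all genes 28.5% were higher and 28.1% lower in EYFP animals, and 27.4% and 27% in hTyr animals, so these small counts are not far from those shares. Sf3b1, the largest SF3B subunit, which clamps the branch site and is often mutated in myelodysplastic disease, was at 6.97, 7.26 and 7.37 log2 CPM in EYFP IP and 6.01, 6.45 and 6.69 in EYFP input. Its hTyr libraries were at 7.04, 7.15, 7.25, 7.28 and 7.29 in IP and 5.87, 6.24, 6.35, 6.48 and 6.64 in input. The groups were apart, with changes of 0.84 (SE 0.10, adjusted p = 6.10e-06) and 0.89 (SE 0.12, adjusted p = 9.64e-06). Sf3a3, Sf3b3 and Snrpb2 were the other higher members, at 0.64, 0.51 and 0.28 in EYFP and 0.87, 0.57 and 0.41 in hTyr animals. Sf3a1, a subunit of the same SF3A complex as Sf3a3, was lower by -0.27 and -0.21 (limma adjusted p = 0.0139 and 0.0307). The subunits of one complex thus did not move as a block: Sf3b2, Sf3b5 and Sf3b6 had no call, and Sf3b4 was lower in EYFP animals at -0.24 (adjusted p = 0.0145) and at -0.19 (adjusted p = 0.105) in hTyr animals.

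Snrpa1, the U2-A′ protein, was at -0.21 (SE 0.09, limma adjusted p = 0.0611, and 0.0230 with the animal as a replicate block, which calls it lower) in EYFP animals and lower by -0.59 (SE 0.09, adjusted p = 3.52e-05) in hTyr animals. The hTyr libraries were at 5.11, 5.16, 5.16, 5.29 and 5.44 log2 CPM in IP and 5.68, 5.81, 5.85, 5.85 and 5.89 in input. The difference between these 2 changes was -0.37 (SE 0.13) and did not pass the test over all genes (limma adjusted p = 0.996).

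The Sm proteins were mostly without a call. Snrpb, which encodes SmB, was at 6.31, 6.39 and 6.56 log2 CPM in EYFP IP and 5.84, 6.10 and 6.30 in EYFP input, and the change was 0.31 (SE 0.08, limma adjusted p = 0.00309). In hTyr animals it was at 6.24, 6.40, 6.42, 6.45 and 6.61 in IP and 5.78, 5.80, 6.02, 6.19 and 6.39 in input, ranges that overlapped at the edge, with a change of 0.39 (SE 0.11, adjusted p = 0.00823). Without the animal of IP_508 the hTyr call was lost, with a limma adjusted p of 0.05004, just above the threshold. Snrpd1 changed by 0.49 (adjusted p = 0.00383) and 0.45 (adjusted p = 0.00513). Snrpd2, Snrpd3, Snrpe, Snrpf and Snrpg had no call in either treatment. Several of these short genes and some hnRNP genes have processed pseudogenes, and how reads that map to more than 1 place were counted is not given in the sources used here.

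Snrpn encodes SmN, the form of SmB/B′ made in neurons from the paternal allele of an imprinted region. It was at 1.85, 2.49 and 2.83 log2 CPM in EYFP IP and 2.80, 3.13 and 3.26 in EYFP input, ranges that overlapped slightly. It had few reads, 60 to 121 in EYFP IP and 125 to 196 in EYFP input. In hTyr animals it was at 2.63, 2.72, 2.87, 3.01 and 3.41 in IP and 2.94, 2.99, 3.08, 3.18 and 3.40 in input, which overlapped. The change was -0.68 (SE 0.16, limma adjusted p = 0.00203) in EYFP animals and -0.19 (SE 0.17, adjusted p = 0.351) in hTyr animals. The difference between them, 0.49 (SE 0.23), did not pass (limma adjusted p = 0.996). Snrpn overlaps the long noncoding gene Snhg14, which is also in the table. In all, 12 members overlap another gene of the table, Srsf2, Srsf9, Hnrnpk, Hnrnpab, Prpf39 and Sf3b3 among them, and the strand setting of the counting is not given in the sources used here.

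The hnRNPs, the largest role group, held the most members higher in IP by number, 11 of 20 in each treatment. Lower were 2 in EYFP and 1 in hTyr animals. Of all genes 28.5% were higher in EYFP and 27.4% in hTyr animals. With the length and GC trend removed and the animal as a block, 11 were higher and 3 lower in EYFP animals. In hTyr animals that fit gave 9 higher and 2 lower. Hnrnpa3, which packages nascent RNA with its A/B relatives, was at 7.74, 8.12 and 8.18 log2 CPM in EYFP IP and 6.97, 7.24 and 7.38 in EYFP input. Its hTyr libraries were at 7.90, 7.99, 8.02, 8.13 and 8.42 in IP and 6.68, 7.01, 7.05, 7.13 and 7.39 in input. No IP library reached down to an input library, and the changes were 0.83 (SE 0.09, limma adjusted p = 2.07e-06) and 1.04 (SE 0.12, adjusted p = 2.35e-06). Hnrnph2, a reader of G-rich stretches, changed by 0.84 and 0.88, and its relative Hnrnph1 by 0.66 and 0.79. Hnrnpk, which binds C-rich RNA, was at 7.83, 8.21 and 8.43 in EYFP IP and 7.23, 7.49 and 7.61 in EYFP input, with changes of 0.71 (adjusted p = 2.48e-05) and 0.79 (adjusted p = 4.49e-05).

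Hnrnpa2b1 had the highest level per length of all members in EYFP input, 7.18 log2 CPM per kilobase of transcript, and was higher in IP by 0.59 (SE 0.08, limma adjusted p = 3.20e-05) and 0.67 (SE 0.11, adjusted p = 8.65e-05). Near the other end Hnrnpr was at 0.99 and Prpf39 at 1.40 log2 CPM per kilobase. The value of Hnrnpr rests on a longest transcript of 21452 bases, and its mean in EYFP input was 5.41 log2 CPM. Before division by length, Hnrnpa2b1 was at 7.97 and Prpf39 at 3.43 log2 CPM in EYFP input, so the changes above were seen in members of different level. Hnrnpu, the scaffold attachment factor, changed by 0.61 and 0.69, Hnrnpm by 0.52 and 0.51, and Hnrnpc, which coats introns at uridine tracts, by 0.47 and 0.65. Hnrnpr, Hnrnpf and Hnrnpll completed the list, at 0.42, 0.36 and 0.29 in EYFP and 0.60, 0.42 and 0.39 in hTyr animals.

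Not all hnRNPs took part. Hnrnpa1, a widely studied repressor of exons, was at 7.17, 7.23 and 7.29 log2 CPM in EYFP IP and 6.81, 7.14 and 7.28 in EYFP input, which overlapped. Its change was 0.17 (SE 0.08, limma adjusted p = 0.0756) in EYFP and 0.17 (SE 0.10, adjusted p = 0.154) in hTyr animals. With the animal as a replicate block the EYFP value passed at an adjusted p of 0.0446, and without the animal of IP_510 the hTyr value did at 0.0302. Hnrnpa0, Hnrnpab, Hnrnpd, Hnrnph3 and Hnrnpl lay between -0.10 and 0.14 with no call, and Hnrnpdl was at 0.18 and 0.19, called higher with the animal as a replicate block (limma adjusted p = 0.0346 and 0.0428). Hnrnpul2 was lower in EYFP animals at -0.19 (limma adjusted p = 0.0448) and at -0.07 (adjusted p = 0.501) in hTyr animals. Hnrnpul1, an hnRNP U-like protein also linked to DNA repair, was lower in IP by -0.36 (SE 0.07, adjusted p = 0.00064) and -0.28 (SE 0.08, adjusted p = 0.00511). Its hTyr libraries were at 6.41, 6.43, 6.48, 6.61 and 6.61 in IP and 6.69, 6.76, 6.79, 6.83 and 6.87 in input, without overlap.

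The SR proteins held more lower than higher calls. Of 11, only Srsf10 was higher in IP in either treatment. In EYFP animals 5 were lower (Srsf2, Srsf4, Srsf9, Srsf11 and Srsf12), and in hTyr animals 4 (the same without Srsf12). These small counts are to be read against all genes, of which 28.1% were lower in EYFP and 27% in hTyr animals. The median change of the 11 was small, -0.14 in EYFP and -0.10 in hTyr animals. Srsf2, or SC35, which helps define exons and marks nuclear speckles, was at 6.71, 6.86 and 7.02 log2 CPM in EYFP IP and 7.11, 7.27 and 7.33 in EYFP input. In hTyr animals it was at 6.73, 6.76, 6.81, 6.94 and 6.96 in IP and 7.17, 7.17, 7.24, 7.25 and 7.38 in input. IP lay below input without overlap in both, and the changes were -0.40 (SE 0.07, limma adjusted p = 0.000121) and -0.40 (SE 0.08, adjusted p = 0.000399).

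Srsf4 had the largest negative change of the SR proteins, -0.57 (SE 0.12, limma adjusted p = 0.000581) and -0.49 (SE 0.14, adjusted p = 0.00578). It was at 3.26, 3.71 and 3.97 log2 CPM in EYFP IP and 4.14, 4.27 and 4.39 in EYFP input, and was lower in IP in all 11 animals. Srsf9 changed by -0.38 (adjusted p = 0.0179) and -0.48 (adjusted p = 0.000112), and without the animal of library IP_512 the EYFP adjusted p was 0.0858. Srsf11 changed by -0.28 (adjusted p = 0.00986) and -0.26 (adjusted p = 0.0437), and the hTyr call was lost without the animal of IP_502, IP_508, IP_509 or IP_510 (limma adjusted p of 0.148, 0.0916, 0.195 and 0.0611). Srsf12 changed by -0.41 (adjusted p = 0.000949) in EYFP animals and was at -0.26 (adjusted p = 0.162) in hTyr animals. Srsf10, a splicing repressor when dephosphorylated, was the exception at 0.35 (adjusted p = 0.00102) and 0.50 (adjusted p = 0.00159).

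Srsf1, the founding member of the family, was at 6.81, 6.92 and 7.08 log2 CPM in EYFP IP and 6.62, 6.89 and 7.12 in EYFP input. The hTyr libraries were at 6.82, 6.92, 7.01, 7.04 and 7.09 in IP and 6.59, 6.70, 6.76, 6.78 and 6.99 in input. Both pairs overlapped, with changes of 0.04 (limma adjusted p = 0.714) and 0.21 (adjusted p = 0.0516). With the animal as a replicate block the hTyr value passed at an adjusted p of 0.0332, and without the animal of IP_510 it did at 0.0297. Srsf3, the smallest SR protein, was at 0.05 (adjusted p = 0.633) and 0.10 (adjusted p = 0.452). Srsf5, Srsf6 and Srsf7 had no call either, with changes between -0.14 and 0.18. The 3 minor-spliceosome members, Snrnp25, Snrnp35 and Snrnp48, which serve the rare U12-type introns, lay between -0.10 and 0.04 with no call.

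Transcript length and base composition moved with these changes. The 30 members higher in IP had a median transcript length of 3638 bases and a GC content of 44.1%, the 12 lower in EYFP animals 2598 bases and 52.0%, and all genes 3251 bases and 50.4%. Across the 73 members Spearman's coefficient between change and length was 0.399 in EYFP and 0.517 in hTyr animals, beside 0.053 and 0.112 across all genes. With GC content it was -0.372 and -0.426 across members and -0.338 and -0.442 across all genes. These correlations are across genes that share the same libraries.

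**Figure D3:**
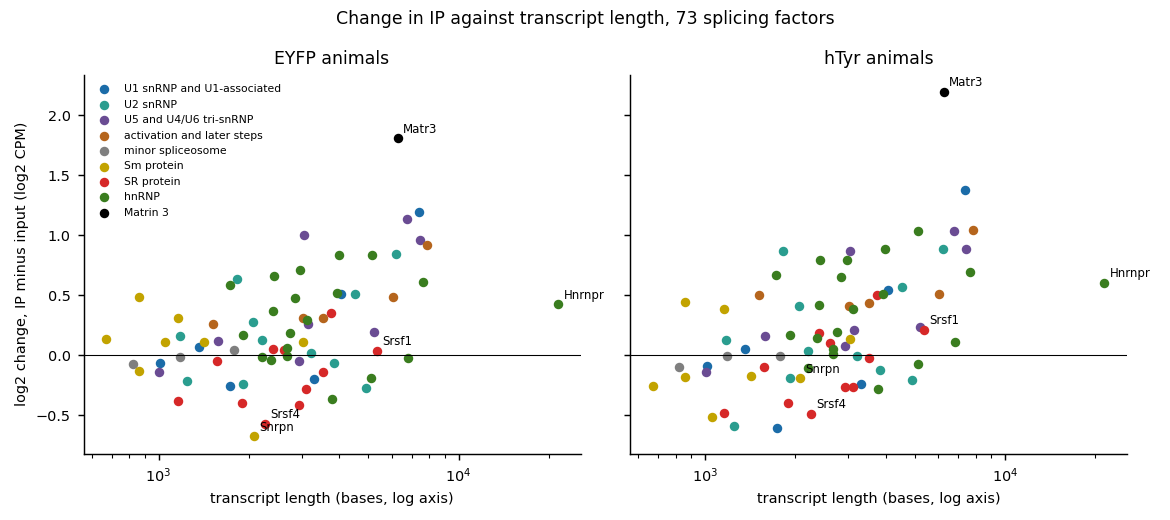
Log2 change between IP and input of the 73 members against transcript length in bases (log axis), in EYFP animals (left) and hTyr animals (right), coloured by role. The points run upward to the right, with Spearman's coefficients of 0.399 and 0.517, and Matr3 is the topmost point in both panels.

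When each library's trend on length and GC content was removed and the animal was kept as a block, the split turned toward lower values: 26 members were higher and 22 lower in EYFP animals, where 29.8% of all genes were higher and 34.4% lower. In hTyr animals 26 were higher and 21 lower, where 28.1% and 31.2% of all genes were. Matr3 went from 1.81 to 1.30 and from 2.19 to 1.49, while Snrnp200 was at 1.22 and 1.13 and Prpf8 at 1.07 and 1.02. Hnrnpa3 went to 0.41 and 0.44, Sf3b1 to 0.50 and 0.40 and Prpf4b to 0.50 and 0.46, all still called. Of the 30 higher members 24 remained so in EYFP and 23 in hTyr animals, and 0 turned to the other direction. Among the SR proteins 10 of 11 were now lower in each treatment, the exception being Srsf10 at 0.05 and 0.05. Srsf1 went from 0.04 to -0.36 (SE 0.05, limma adjusted p = 2.37e-05) in EYFP animals and from 0.21 to -0.35 (SE 0.06, adjusted p = 0.000124) in hTyr animals, and Srsf3 went to -0.26 and -0.34. Of the 11 hnRNPs higher before, Hnrnpr lost its call in EYFP animals and Hnrnpll, Hnrnpr and Hnrnpu lost theirs in hTyr animals. Hnrnpl was newly higher in EYFP animals and Hnrnpa0 in hTyr animals, while Hnrnpd was newly lower in both treatments and Hnrnph3 in hTyr animals. Of the 5 factors of activation and later steps, Prpf18 lost its call in both treatments and Prpf38a in EYFP animals.

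**Figure D4:**
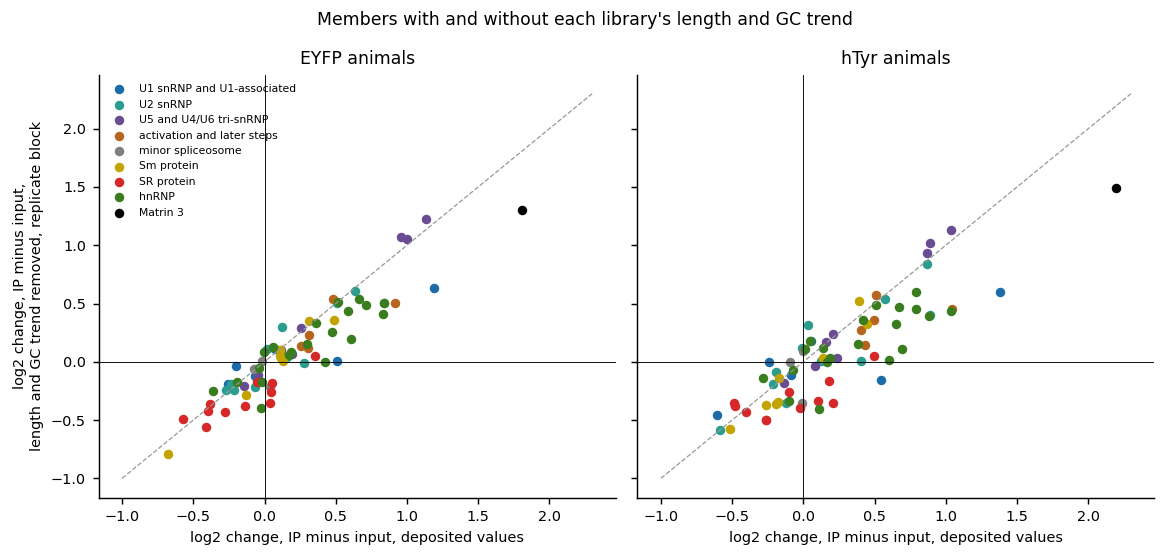
Log2 change between IP and input of each member from the deposited values (x axis) and after removal of each library's length and GC trend with the animal as a block (y axis), in EYFP animals (left) and hTyr animals (right), coloured by role. The dashed line marks equal values. The SR proteins fall below it apart from Srsf4 and Srsf9, and Snrnp200 and Prpf8 lie slightly above it.

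Changes were compared between EYFP and hTyr animals, which share no library. Pearson's r between the 2 sets of changes was 0.948 (Spearman's coefficient 0.936) across the 73 members and 0.950 (Spearman's coefficient 0.938) across all genes. The sign was the same for 64 members (87.7%, against 90.1% of all genes). The median SD of members between animals was 0.151 log2 units in EYFP IP and 0.182 in hTyr IP, beside 0.185 and 0.186 for all genes. In input it was 0.157 in EYFP and 0.192 in hTyr animals, above the 0.139 and 0.161 of all genes.

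The difference between IP and input in noradrenergic markers was 1.85 to 2.91 log2 units in EYFP animals and 2.32 to 3.68 in hTyr animals, and it was set beside each member's own difference over the 11 animals. None of 73 relations passed adjustment in a 100000-resample two-sided permutation test, with a lowest Benjamini-Hochberg adjusted p of 0.10 for Pearson's r and 0.461 for Spearman's coefficient, and 5 had an unadjusted p under 0.05. The strongest was Snrnp70, with r of -0.812 (permutation p = 0.00137) and Spearman's coefficient of -0.727 (permutation p = 0.0139). Without the 2 animals farthest from the median r was -0.760, and it was -0.870 within the EYFP animals.

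Other splicing genes, 127 of 132 of which were in the table, were read beside the members. Of these, 51 were higher and 24 lower in IP in EYFP animals, and 50 higher and 23 lower in hTyr animals. The shares to read these counts against are those of all genes, 28.5% higher and 28.1% lower in EYFP and 27.4% and 27% in hTyr animals. Of 14 spliceosomal helicases and the U5 GTPase 10 were higher and 0 lower in EYFP animals and 8 and 0 in hTyr animals. Dhx9, which unwinds RNA duplexes, changed by 1.18 and 1.19 and Dhx15, which takes the spent spliceosome apart, by 1.15 and 1.39. Eftud2, the GTPase that sits with Prpf8 and Snrnp200 in U5, changed by 0.73 and 0.73. Of 21 genes of the PRP19 complex and catalytic core, 11 were higher and 3 lower in EYFP animals and 10 and 1 in hTyr animals. Crnkl1, a scaffold of that complex, changed by 1.62 (SE 0.15, limma adjusted p = 9.65e-07) and 1.86 (SE 0.19, adjusted p = 4.76e-07), and Plrg1 and Cdc5l, partners of Prpf19, by 1.26 and 1.12 in EYFP and 1.30 and 1.25 in hTyr animals.

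The LSm proteins, relatives of the Sm proteins of which some form the ring on U6 and others act in mRNA decay, had none higher of 12, with 6 lower in EYFP and 4 in hTyr animals. Lsm12 changed by -0.51 and -0.49 and Lsm6 by -0.26 and -0.32. Of 9 paraspeckle and related RNA-binding protein genes 7 were higher and 1 lower in both treatments, with the paraspeckle protein Pspc1 at 1.18 and 1.10. Of 8 exon junction complex genes 6 were higher and 1 lower in EYFP animals and 4 and 0 in hTyr animals, with Magoh at 0.57 and 0.59. SR-related genes were mixed, 7 higher and 5 lower of 20 in EYFP animals and 7 and 7 in hTyr animals: the speckle scaffold Son was at 0.82 and 0.90, and Srrm4, the activator of neuronal microexons, at -0.46 and -0.71. Of 6 SR protein kinases 1 was higher and 0 lower in EYFP animals and 1 and 1 in hTyr animals.

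Of 8 genes that recognise the 3′ splice site 2 were higher and 2 lower in each treatment, and Uhmk1, the kinase of splicing factor 1, had the largest negative change, -1.45 and -0.80. Among 29 tissue-regulated splicing regulators 7 were higher and 6 lower in EYFP animals, near those shares, and 11 and 7 in hTyr animals. Ptbp2, the neuronal polypyrimidine tract protein, changed by 0.69 and 0.83, while Nova2 changed by -0.51 and -0.62 and Rbfox3, known as the neuronal marker NeuN, by -0.49 and -0.51.

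The infusion of hTyr was compared with EYFP to ask what hTyr changed. No splicing factor passed the limma test in IP, where 0.0556% of all genes did, nor in input, where 0.00794% did. The lowest adjusted p was 0.407 in IP and 0.990 in input. At an unadjusted p under 0.05, 4 members in IP (2 higher, 2 lower) and 4 in input (1 higher, 3 lower) stood out, which is 5.48% of members each time, beside 6.19% and 3.03% of all genes. No member had groups without overlap in either direction, where 0.389% of all genes were higher and 0.262% lower in IP, and 0.0953% higher and 0.0794% lower in input. The changes ran from -0.73 to 0.53 in IP.

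Snrnp70 had the lowest p in IP. It was at 6.59, 6.64, 6.71, 6.82 and 6.90 log2 CPM in hTyr IP and at 6.87, 7.18 and 7.50 (lowest, median, highest) in EYFP IP, so the ranges met only at their ends. The difference was -0.45 (SE 0.10, limma adjusted p = 0.407). Snrpg, the smallest Sm protein, was at 1.70, 1.73, 1.95, 2.19 and 2.43 in hTyr IP and 2.35, 2.67 and 3.30 in EYFP IP, a difference of -0.73 (SE 0.21, adjusted p = 0.533) in the member with the fewest reads. Snrpn was at 2.63, 2.72, 2.87, 3.01 and 3.41 in hTyr IP and 1.85, 2.49 and 2.83 in EYFP IP, a difference of 0.53 (SE 0.20, adjusted p = 0.773). It too had few reads, 86 to 201 in hTyr IP and 60 to 121 in EYFP IP. Hnrnpab, a repressor also known for binding single-stranded DNA, differed by 0.21 (SE 0.09, adjusted p = 0.776).

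In input Snrpa1 was at 5.68, 5.81, 5.85, 5.85 and 5.89 log2 CPM in hTyr animals and 5.49, 5.65 and 5.81 in EYFP animals, a difference of 0.17 (SE 0.07, limma adjusted p = 0.990). Matr3 differed by -0.26 (SE 0.10), Srsf10 by -0.22 (SE 0.10) and Sf3b3 by -0.16 (SE 0.07), and the adjusted p was 0.990 for all 3. Of the 73 members 21 were above 0 in this comparison (28.8%) and 52 below, where 46.4% of all genes were above 0, with a median of -0.06 against -0.01. Spearman's coefficient between this difference and transcript length was -0.559 across members and -0.412 across all genes, so longer genes tended to lower values in hTyr input in both.

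The difference in the hTyr effect between IP and input was called for 0 members in the limma fit of all 4 groups, beside 0.00794% of all genes. Before adjustment 4 members had a p under 0.05, 5.48% of them against 3.31% of all genes. These were Snrpn at 0.49 (SE 0.23), Prpf38a at 0.24 (SE 0.12), Snrpa1 at -0.37 (SE 0.13) and Snrnp70 at -0.35 (SE 0.13), all with a limma adjusted p of 0.996. Prpf38a was at 4.57, 4.66, 4.73, 4.73 and 4.83 log2 CPM in hTyr IP and 4.14, 4.18, 4.19, 4.20 and 4.31 in hTyr input, and at 4.35, 4.51 and 4.81 in EYFP IP and 4.17, 4.24 and 4.45 in EYFP input. None of the 127 other splicing genes was called in any of these 3 comparisons, with 12 at an unadjusted p under 0.05 in IP, 6 in input and 3 in the difference.

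**Figure D5:**
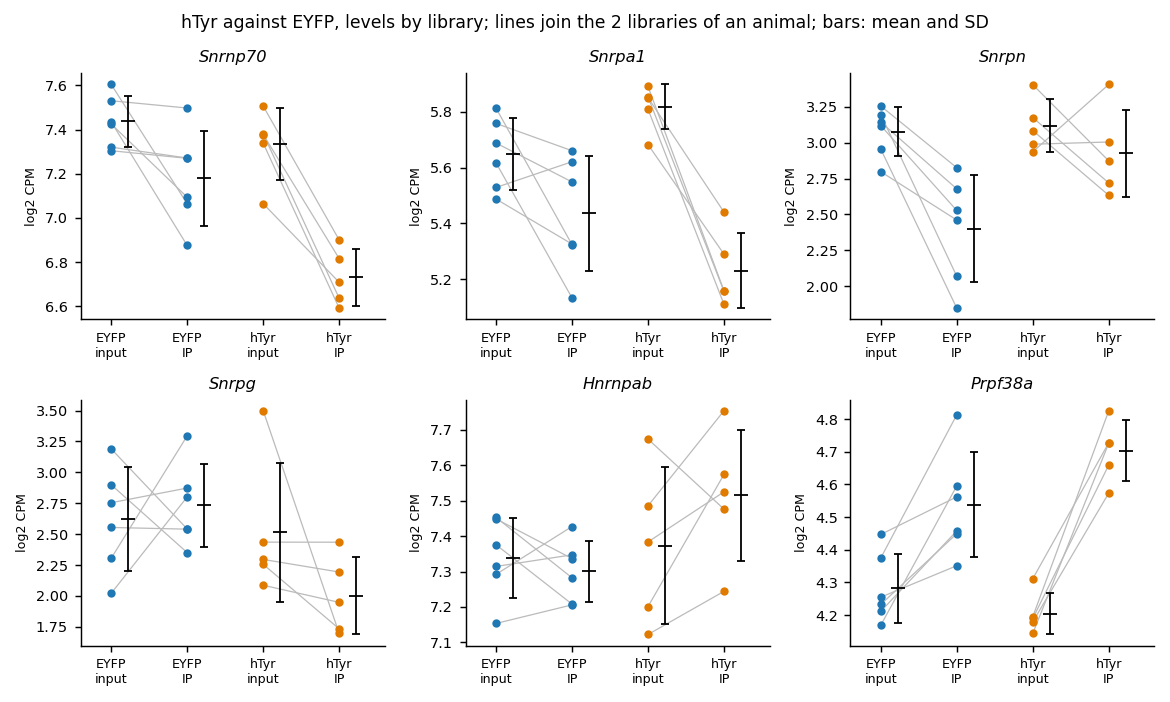
Level of 6 members in every library, as log2 CPM, with EYFP animals in blue and hTyr animals in orange, chosen for a low unadjusted p in a comparison of hTyr with EYFP. Grey lines join libraries of an animal, and black bars are the mean and SD of a group. The hTyr and EYFP points overlap in each panel, and none of these differences passed adjustment.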

How the data were processed

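RNA of 22 libraries from 11 mice was analysed. The authors deposited 1 table of log2 CPM values, already filtered and normalized, and STAR, featureCounts and mm10 are named in the submitters' processing notes without versions. The normalization method, filter and strand setting are not given in the sources used here. The deposited log2 values carry an offset of 0.108 CPM, and whole reads were recovered from them for 100% of values (tolerance 0.05), between 12654489 and 25100142 per library. Since the values are not counts, limma 3.58.1 (R 4.3.3) with a mean-variance trend was fitted on them over all 12596 genes, with Benjamini-Hochberg adjustment at 0.05 and only the groups compared in each fit. The difference of differences used all 4 groups. Fold changes are on this log2 scale and understate the change of low genes.

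IP and input libraries of an animal carry the same animal number, and their deviations from the group means correlated within animals (mean r 0.448 over 11 pairs, lowest 0.279). They are therefore paired, and the animal as a replicate block was an alternative, as were other normalizations, filters, pseudocounts, weights, voom on the recovered reads, glial markers as covariate and leaving out each animal. Removal of a loess trend on length and GC content, from GENCODE M21 transcripts of 12381 genes (98.3%), was chosen after seeing the data. Per-length levels use the longest coding transcript.

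The members, role groups and lists were chosen with earlier results of these data known. Named with values were up to 6 members with the largest change each way among those passing, the 4 with the lowest p where fewer than 2 passed, and 15 set members. The relation to noradrenergic markers used scipy 1.17.1. Promoters and positions are from RefSeq (GRCm38). Some genes are counted but not reported here by name. The script was tested on simulated data.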

Additional observations from a re-analysis of the deposited data

Results flagged for a closer look

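In groups of 5 or 6 libraries, 116 sets of values of the named members were searched for a library far from the rest by Dixon's gap, which chance alone flags in about 1 in 20, so 5.8 would be found by chance and 4 were. Hnrnpk was at 7.72 log2 CPM in the hTyr input library Pre_510, where the next library was at 7.26, and without that animal the IP against input change in hTyr animals was 0.83. Snrpg was at 3.50 log2 CPM in the same library, from 221 reads, with the next at 2.44. The hTyr against EYFP difference in IP was -0.66 without that animal. That comparison does not use the input library, so it cannot show what the distant input value does. Matr3 was lowest in the EYFP IP library IP_505, at 7.81 log2 CPM with the next at 8.45, and without that animal its change was 1.87 (limma adjusted p = 3.68e-10). Srsf9 was at 5.54 log2 CPM in the hTyr IP library IP_508, from 654 reads, with the next at 5.37, and without that animal its change was -0.54.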

How the results depend on the processing

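The count of members called in IP against input was 42 in EYFP animals and 39 in hTyr animals. Of all genes 28.5% were higher and 28.1% lower in EYFP animals, and 27.4% and 27% in hTyr animals. The share of members called in either direction was thus near that of all genes. Summed over both directions, the member count stayed within 1.5 times under every alternative run, at 40 to 48 and 36 to 47. It was 38 to 42 and 33 to 38 without 1 animal. The 3 other comparisons called 0 members throughout. In the paired fit, with the animal as a replicate block, 46 members were called in EYFP animals (33 higher, 13 lower), 41 in hTyr animals (32 higher, 9 lower) and 0 in the difference of the hTyr effect. It newly passed Hnrnpa1, Hnrnpdl, Prpf4 and Snrpa1 in EYFP animals and Srsf1 (adjusted p = 0.0332) and Hnrnpdl in hTyr animals. With the length and GC trend also removed the counts were 48 and 47, but the lower calls rose from 12 to 22 in EYFP and from 9 to 21 in hTyr animals, beyond 1.5 times, and the higher ones went from 30 to 26 in both. Of 599 values of named members under the other settings, 584 kept their direction and side of the threshold, 7 turned direction, and of 374 without 1 animal 363 did and 0 turned. Median centring gave Srsf1 -0.0153 and Srsf3 -0.00515 in EYFP animals. The replicate block with the trend removed gave Srsf1 -0.358 and Srsf3 -0.259 in EYFP animals and Srsf1 -0.351, Srsf3 -0.337 and Hnrnpa1 -0.000685 in hTyr animals. In that fit Hnrnpul1 (adjusted p = 0.0545) and Hnrnpu (0.162) lost their call in hTyr animals, as did Srsf11 there without a variance trend (0.0684). Srsf1 newly passed there with 1 spread over all libraries (0.0356), quality weights (0.0336) and a filter on low genes (0.0479). The cause was not tested. Precision is set mainly by the number of animals, 5 or 6 a group, and by depth for Snrpg, the member with the fewest reads.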
